A study of Mus musculus with 6 samples.

Results

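The ErbB receptors and their EGF family ligands were followed in D2A1 cells, a mouse mammary tumor line, grown as spheroids in three-dimensional Matrigel culture. The members were the 10 rows, of 54146 genes in the expression table, whose gene name was Egfr, Erbb2, Erbb3, Areg, Ereg, Hbegf, Tgfa, Btc, Nrg1 or Epgn, that is 3 receptors and 7 ligands. In 3 libraries the spheroids had received 50 nM recombinant SLURP1 (rSLURP1), a secreted protein of the Ly6/uPAR family, and in the other 3 they had received 50 nM recombinant GST (rGST), a control protein. All 6 libraries came from the same line in the same serum-containing medium, so they stand for this line alone. The labels do not say whether libraries of a group came from separate cultures, so p-values measure only the spread between these libraries, which may be technical. The comparison addresses which genes differed when the cells were exposed to rSLURP1.

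ErbB receptors are receptor tyrosine kinases that signal as dimers. EGFR binds amphiregulin, epigen and TGFα, and it also binds HB-EGF, betacellulin and epiregulin, which can in addition bind ErbB4. Neuregulin 1 binds ErbB3 and ErbB4, ErbB3 has little kinase activity of its own, and ErbB2 has no known soluble ligand and acts as a partner for the other receptors. The ligands are made as membrane-anchored precursors and are released by ADAM proteases, and in the mammary gland amphiregulin is known for its part in duct growth.

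Levels were TPM values (transcript abundances scaled to a fixed total per library), which are corrected for transcript length and can be compared between genes, and values after ± are the SD over 3 libraries. A log2 fold change is the difference in mean log2(TPM + 1), rSLURP1 minus rGST, and understates the change of genes with low TPM. It was tested with limma over the 12301 genes that reached 1 TPM in 3 or more libraries, and the adjusted p is by Benjamini-Hochberg over those genes. The median log2 fold change of all tested genes was -0.33, so most genes read lower with rSLURP1. For that reason each of the 7 tested members is also given after median-ratio scaling, which brings the median gene to no change. Libraries of the same treatment correlated at 0.983 to 0.986 and libraries of different treatments at 0.941 to 0.950 (Pearson's r across genes on the log2 scale, as a description).

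Some transcripts known as markers of fibroblasts or immune cells moved with treatment. The epithelial keratin Krt18 was at a mean of 195.6 TPM with rGST and 197.7 TPM with rSLURP1. Krt8 was at 1.56 ± 0.14 and 0.697 ± 0.163 TPM (limma adjusted p = 0.00968), and Krt7 at 0.857 ± 0.449 and 0.267 ± 0.436 TPM, with overlap. Epcam, Krt5 and Krt14 were listed at 0 in all 6 libraries. Of 8 fibroblast markers, 5 reached a TPM of 1, and their list summed to 1047 to 1198 TPM with rGST and 58.8 to 66.6 TPM with rSLURP1. Of 5 immune markers, Cd68 alone reached a TPM of 1, at a mean of 3.77 with rGST and 9.60 with rSLURP1, and Adgre1 and Cd3e were listed at 0. None of 4 endothelial markers reached a TPM of 1. The part of these markers in the results for the ErbB family was not tested. The methods name D2A1 cells alone in this culture, and whether other cell types were present was not tested. In bulk RNA, fewer cells carrying a transcript and less of it per cell cannot be told apart.

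In these spheroids 2 ligands, Areg and Ereg, rose with rSLURP1 by more than 2-fold, and Erbb2 and Hbegf fell. The Hbegf call held under every alternative, and the Erbb2 call was lost under some. Of the 10 members, 7 passed the filter on low values, and Egfr, Erbb3 and Epgn did not. Among the tested members, 2 were called higher and 3 lower at an adjusted p of 0.05, where 8.66% of all tested genes were called higher and 58.5% lower. The third lower call was Nrg1, which lost its call under several alternatives. Nrg1 passed the filter mainly through its rGST libraries, where it was higher, and only rSLURP1 replicate 1 of its group also reached 1 TPM. Called at least 2-fold higher were 1.15% of tested genes and at least 2-fold lower 7.06%, and Areg and Ereg were the members in the first class. With median-ratio scaling 4 members were called higher (Areg, Ereg, Tgfa and Btc) and 2 lower (Erbb2 and Hbegf), against 26.0% and 25.2% of tested genes.

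**Figure D1:**
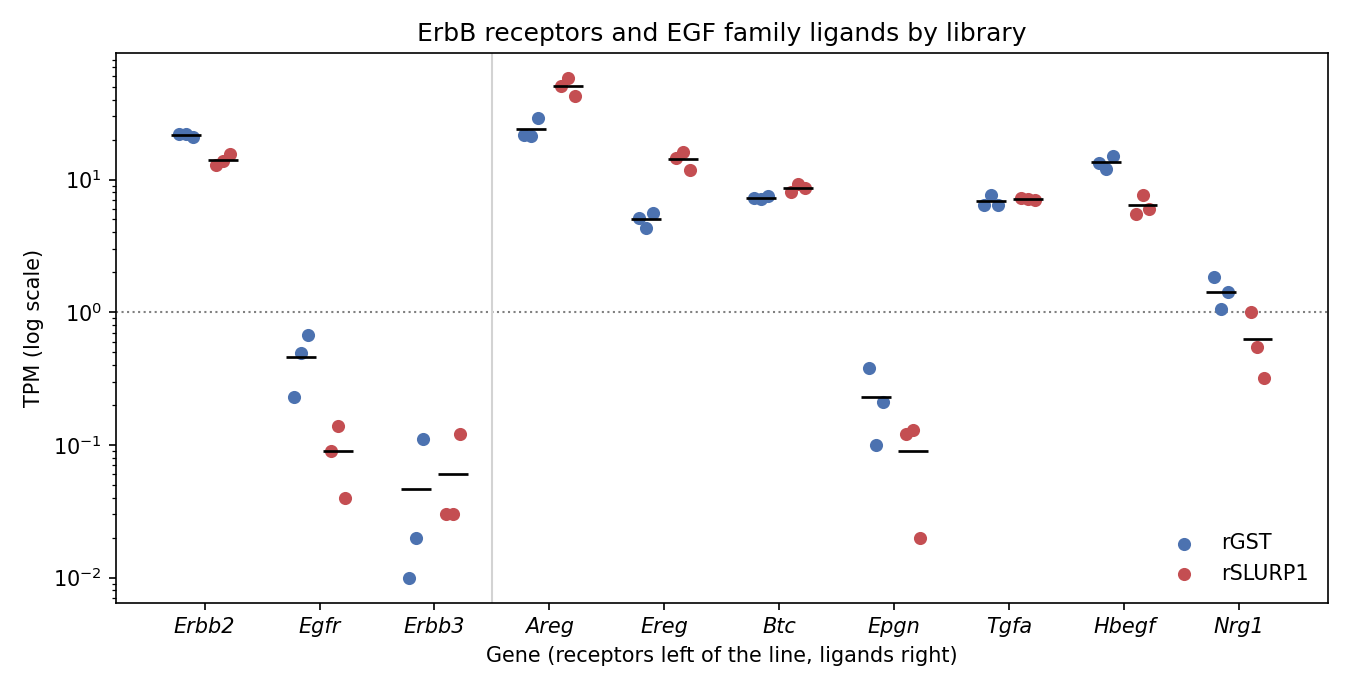
TPM of the 10 members in each of the 6 libraries, on a log axis, with 1 point per library for rGST and rSLURP1. Areg, Ereg and Btc lie higher in all 3 rSLURP1 libraries, and Egfr, Erbb2, Hbegf and Nrg1 lie lower.

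Among the receptors, Erbb2 carried nearly all of the transcript. Erbb2 (ENSMUSG00000062312.5, chr11:98412470-98437716, plus strand, mm10) was at 21.9, 22.1 and 20.8 TPM with rGST and at 12.97, 13.71 and 15.63 TPM with rSLURP1. The 3 rSLURP1 libraries all lay below the rGST libraries. The means were 21.6 ± 0.694 and 14.1 ± 1.37 TPM, and the log2 fold change was -0.58 (SE 0.0805, limma adjusted p = 4.91e-04). After median-ratio scaling the value was -0.25 (adjusted p = 0.0378), and after quantile normalization it was -0.19 and did not pass (adjusted p = 0.0962). After correction for transcript length and GC content it was -0.12 and did not pass either (limma adjusted p = 0.229). Erbb2 overlaps Mien1 on the opposite strand, and since the strand setting of the counting is not given in the sources used here, their reads may not be separable.

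Egfr, the receptor for most of these ligands, lay below the filter on low values. Egfr (ENSMUSG00000020122.16, chr11:16752203-16918158, plus strand) was at 0.23, 0.49 and 0.67 TPM with rGST and at 0.09, 0.14 and 0.04 TPM with rSLURP1. Its rSLURP1 libraries all lay below the rGST libraries, but no library reached a TPM of 1 and the gene was left out of the main test. When every gene was kept, the log2 fold change was -0.41 (SE 0.118, limma adjusted p = 0.0413). Erbb3 (ENSMUSG00000018166.8, chr10:128567523-128589652, minus strand) was at 0.01, 0.02 and 0.11 TPM with rGST and at 0.03, 0.03 and 0.12 TPM with rSLURP1. The groups overlapped, and at such levels no difference was detectable. Erbb2 made up 96.4% to 98.9% of summed receptor TPM with rGST and 98.8% to 99.1% with rSLURP1.

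The ligands that rose are neighbours on chromosome 5. Areg, which encodes amphiregulin (ENSMUSG00000029378.5, chr5:91139599-91148432, plus strand), was at 21.8, 21.4 and 29.1 TPM with rGST and at 50.5, 58.3 and 42.5 TPM with rSLURP1. The lowest rSLURP1 library lay well above the highest rGST library. The means were 24.1 ± 4.32 and 50.4 ± 7.89 TPM, a ratio of 2.09, and the log2 fold change was 1.04 (SE 0.145, limma adjusted p = 5.31e-04) or 1.38 with median-ratio scaling. The value was 0.97 without rGST replicate 1, 0.96 without rGST replicate 2 and 0.93 without rSLURP1 replicate 2, all under 2-fold and all still passing the test.

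Ereg, which encodes epiregulin (ENSMUSG00000029377.5, chr5:91074622-91093646, plus strand), was at 5.17, 4.29 and 5.55 TPM with rGST and at 14.7, 16.2 and 11.7 TPM with rSLURP1. The groups did not overlap. The means were 5.0 ± 0.646 and 14.2 ± 2.28 TPM, a ratio of 2.83, and the log2 fold change was 1.33 (SE 0.137, limma adjusted p = 1.10e-04) or 1.64 with median-ratio scaling. In both genes rSLURP1 replicate 2 was the highest library and rSLURP1 replicate 3 the lowest of its group.

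Btc, which encodes betacellulin (ENSMUSG00000082361.6, chr5:91357261-91402994, minus strand), was at 7.21, 7.08 and 7.58 TPM with rGST and at 8.04, 9.20 and 8.64 TPM with rSLURP1. The groups did not overlap, but the distance between them was small. The log2 fold change of 0.21 (SE 0.0848) did not pass as deposited (limma adjusted p = 0.0550), and it was 0.53 and passed with median-ratio scaling (adjusted p = 0.00119). Epgn, which encodes epigen (ENSMUSG00000035020.11, chr5:91027464-91035215, plus strand), was at 0.38, 0.10 and 0.21 TPM with rGST and at 0.12, 0.13 and 0.02 TPM with rSLURP1, and the groups overlapped.

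Hbegf, which encodes heparin-binding EGF-like growth factor (ENSMUSG00000024486.5, chr18:36504927-36515805, minus strand), moved the other way. It was at 13.4, 12.1 and 15.1 TPM with rGST and at 5.47, 7.65 and 6.04 TPM with rSLURP1, with no overlap. The means were 13.5 ± 1.5 and 6.39 ± 1.13 TPM, 2.12 times as high with rGST, and the log2 fold change was -0.98 (SE 0.131, limma adjusted p = 4.14e-04). It was -0.66 with median-ratio scaling (adjusted p = 0.00344).

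Nrg1, which encodes neuregulin 1 (ENSMUSG00000062991.7, chr8:31814551-32884029, minus strand), was low, at 1.83, 1.05 and 1.41 TPM with rGST and at 1, 0.55 and 0.32 TPM with rSLURP1. The rSLURP1 libraries lay below the rGST libraries, and the log2 fold change was -0.59 (SE 0.213, limma adjusted p = 0.0399). The call was lost with median-ratio scaling (-0.42, adjusted p = 0.144) and without rGST replicate 1 (adjusted p = 0.138), rGST replicate 3 (0.0897), rSLURP1 replicate 2 (0.0882) or rSLURP1 replicate 3 (0.120).

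Tgfa, which encodes TGFα (ENSMUSG00000029999.14, chr6:86195223-86275719, plus strand), was at 6.42, 7.63 and 6.46 TPM with rGST and at 7.29, 7.08 and 6.96 TPM with rSLURP1. The groups overlapped. The log2 fold change was 0.05 with a confidence half-width of 0.22 (limma adjusted p = 0.639), and it was 0.36 with median-ratio scaling (adjusted p = 0.0144). Over all 10 members, 3 had every rSLURP1 library above every rGST library, 4 had every one below and 3 overlapped. Of the 7 tested members 3 lay wholly above and 3 wholly below, and of all tested genes 9.75% lay above and 61.7% below. An exact two-sided permutation test gave p = 0.1 for each of the 7 members without overlap, the smallest value that 3 against 3 libraries allow.

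**Figure D2:**
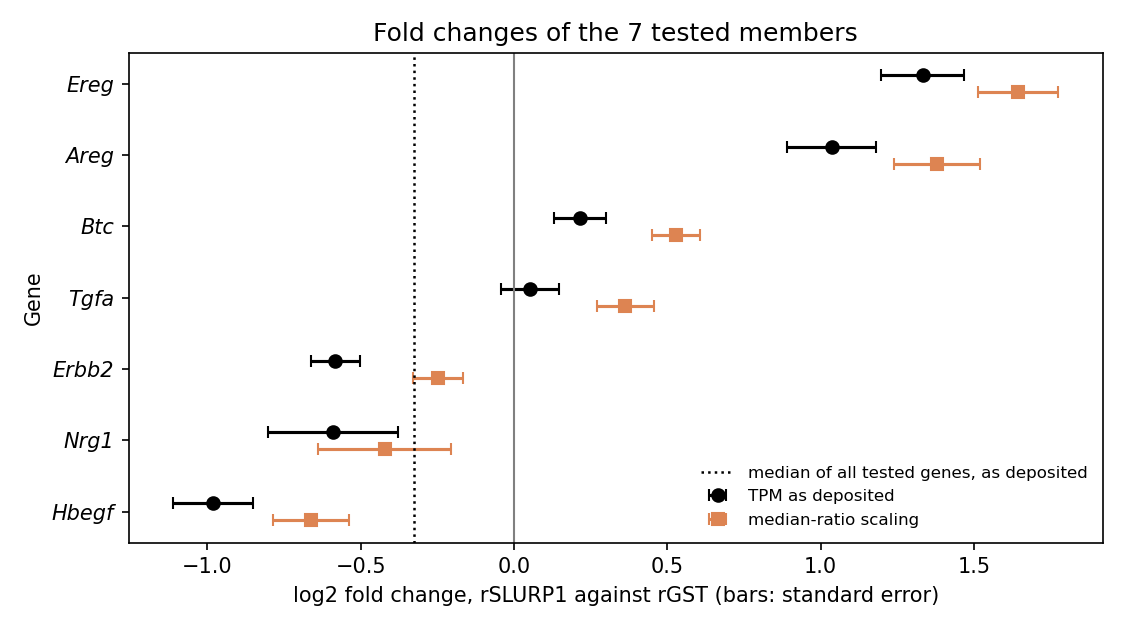
Log2 fold change, rSLURP1 against rGST, of the 7 tested members as deposited and with median-ratio scaling, with bars for the standard error. Areg, Ereg, Btc and Tgfa lie above 0 and Erbb2, Hbegf and Nrg1 below 0 on both scales, with Tgfa close to 0 as deposited.

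Since scaling moved all genes, members were also compared with each other within each library. Areg and Ereg together made up 48.0%, 47.9% and 53.0% of summed ligand TPM with rGST and 74.8%, 75.2% and 71.1% with rSLURP1. The share of Hbegf went from 23.1% ± 0.603 to 7.31% ± 0.898, and that of Areg from 41.1% ± 3.00 to 57.5% ± 1.57. Summed ligand TPM was 58.4 ± 6.18 with rGST and 87.4 ± 11.5 with rSLURP1, and summed receptor TPM was 22.1 ± 0.511 and 14.3 ± 1.39. The log2 ratio of summed ligands to summed receptors was 1.21 higher with rSLURP1, or 2.32-fold (exact permutation p = 0.1).

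**Figure D3:**
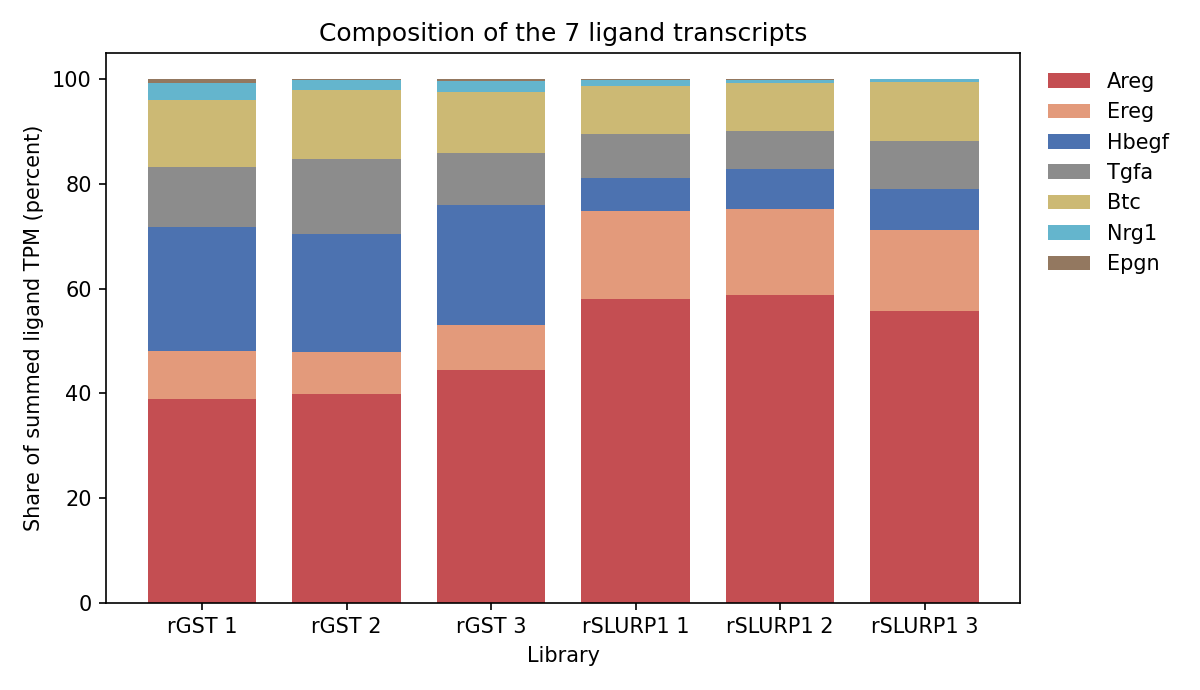
Share of each ligand in summed ligand TPM, in percent, for each library. Areg and Ereg together take 71.1% to 75.2% in the rSLURP1 libraries and 47.9% to 53.0% in the rGST libraries.

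In all, 19 ratios within libraries were computed, and 12 did not overlap between treatments, each with an exact permutation p of 0.1 and an adjusted p of 0.158 over the 19. The ratios are not independent, since 9 share Egfr and 8 share Erbb2 as denominator. The share without overlap among ratios of other genes was not computed. Of single tested genes, 9.75% lay wholly above and 61.7% wholly below. Relative to Erbb2, Areg was 3.21-fold, Ereg 4.33-fold, Btc 1.81-fold and Tgfa 1.60-fold higher with rSLURP1. The ratios of Hbegf, Nrg1, Erbb3 and Epgn to Erbb2 overlapped between treatments. The log2 ratio of Areg to Hbegf was 0.83 ± 0.12 with rGST and 2.98 ± 0.20 with rSLURP1, a 4.46-fold difference. Of the 9 ratios to Egfr, 6 did not overlap, but they rest on Egfr levels of 0.04 to 0.67 TPM. The ratios to Erbb2 and to Hbegf were chosen after the values were seen.

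Epgn, Ereg, Areg and Btc lie within 375.5 kb on chromosome 5. The gaps are 39.4 kb between Epgn and Ereg, 46.0 kb between Ereg and Areg and 208.8 kb between Areg and Btc. The window reaching 500 kb to either side, chosen after the values were seen, held 34 genes, of which 9 were tested, 4 were called higher and 2 lower, beside 8.66% and 58.5% of all tested genes. With median-ratio scaling 5 of the 9 were called higher and none lower, beside 26.0% and 25.2%. The 4 genes called higher were Areg, Ereg, Cxcl1 and Parm1, and Btc joined them after scaling. The window was drawn around these ligands with their rise known, so the counts are no separate support for the region. Cxcl1, which encodes a neutrophil-attracting chemokine, went from 671 ± 104 to 2019 ± 156 TPM (log2 fold change 1.60, limma adjusted p = 1.49e-05). Cxcl5, another chemokine gene, had a log2 fold change of -0.43 (limma adjusted p = 0.00113), and that of Cxcl3 was 0.08 and did not pass. Parm1 rose with a log2 fold change of 1.13, and it passed the filter only through its rSLURP1 libraries.

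**Figure D4:**
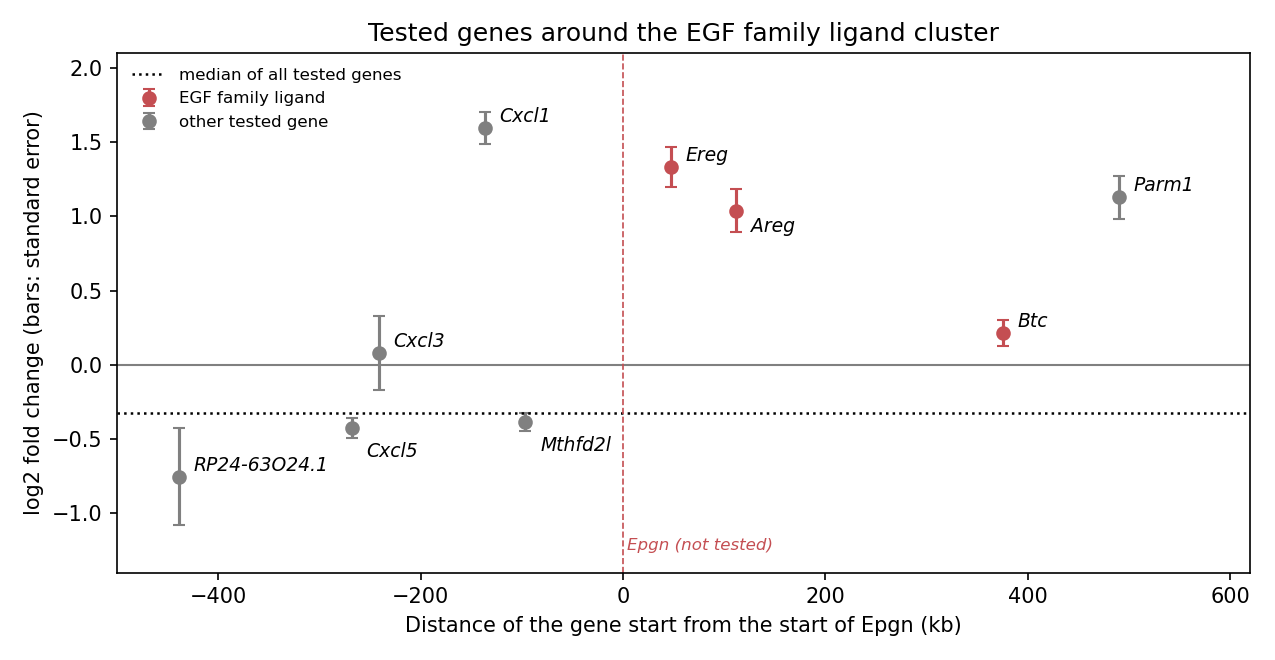
Log2 fold change of the tested genes around the chromosome 5 ligand cluster, against distance in kb. Areg, Ereg, Cxcl1 and Parm1 lie above 1, and Cxcl5 and Mthfd2l lie near the median of all tested genes.

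Promoter sequence is shown for the most abundant ligand that rose and for its neighbour Btc, which did not pass as deposited. It is also shown for Erbb2, which fell as deposited and lost its call under some alternatives. Promoter windows from RefSeq (GRCm38.p6) were matched for 6 of the 10 members, and those of Ereg, Hbegf, Erbb3 and Nrg1 were not analysed here. Each run is the 250 bases before the gene start, 5′ to 3′ on the gene's strand, with motif matches in capitals. The start is that of RefSeq, which for Erbb2 lies just inside the gene as GENCODE annotates it, so the end of that run overlaps the annotated gene.
Areg, chr5:91139349-91139598, plus strand: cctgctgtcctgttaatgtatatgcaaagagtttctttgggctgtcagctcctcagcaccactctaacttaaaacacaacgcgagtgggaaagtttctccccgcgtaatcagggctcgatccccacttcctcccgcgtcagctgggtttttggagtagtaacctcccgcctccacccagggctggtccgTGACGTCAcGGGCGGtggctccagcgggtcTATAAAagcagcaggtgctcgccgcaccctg
Btc, chr5:91402995-91403244, minus strand: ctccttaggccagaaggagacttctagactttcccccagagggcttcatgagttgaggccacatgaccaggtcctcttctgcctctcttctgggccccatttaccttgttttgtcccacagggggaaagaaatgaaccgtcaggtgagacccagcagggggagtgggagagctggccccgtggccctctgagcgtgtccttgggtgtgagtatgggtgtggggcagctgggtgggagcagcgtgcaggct
Erbb2, chr11:98412234-98412483, plus strand: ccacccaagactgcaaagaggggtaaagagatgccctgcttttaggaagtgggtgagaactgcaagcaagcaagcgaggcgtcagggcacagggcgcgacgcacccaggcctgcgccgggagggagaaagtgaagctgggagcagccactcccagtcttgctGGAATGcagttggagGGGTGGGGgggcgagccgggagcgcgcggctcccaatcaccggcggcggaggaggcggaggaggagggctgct

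The motifs searched, on both strands, were the cAMP response element (TGACGTCA), AP-1 (TGANTCA), the GC box (GGGCGG), the TATA box (TATAAA), TEAD (GGAATG) and KLF4 (CCCCACCC). They were present in 1.55%, 6.75%, 32.7%, 12.4%, 12.6% and 9.05%, respectively, of 32851 promoter windows of the same length. The Areg window held a cAMP response element 61 bases before the start, a GC box 52 bases before it and a TATA box 31 bases before it. The Erbb2 window held a TEAD match and a KLF4 match, and no searched motif was found in the Btc window. Of the windows not shown, that of Egfr held 1 GC box, that of Tgfa 2 GC boxes and that of Epgn 1 TATA box. These matches describe letters and not binding.

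The rest of the pathway was described by gene lists. None of the 5 remaining family genes passed the filter. Egf, the founding ligand, was at 1.28 ± 0.31 TPM with rGST and 0.473 ± 0.248 TPM with rSLURP1, and Nrg2 at 0.25 ± 0.157 and 0.03 ± 0.0173 TPM. In both, every rSLURP1 library lay below every rGST library, as in 61.7% of all tested genes. When every gene was kept, Egf passed (limma adjusted p = 0.0331) and Nrg2 did not (0.0820). Nrg3 and Nrg4 were near 0, and Erbb4 was listed at 0 in all 6 libraries.

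Of 8 tested genes of ligand shedding, 3 rose, 3 fell and 2 did not pass as deposited (all tested genes, 8.66% higher and 58.5% lower), and 5 rose and 1 fell with median-ratio scaling (26.0% and 25.2%). Adam17, the main protease for amphiregulin, went from 45.5 ± 2.15 to 61.2 ± 2.32 TPM (log2 fold change 0.42, limma adjusted p = 3.33e-04). Rhbdf2 and Rhbdf1 encode the iRhom partners of that protease, and they moved in opposite directions. Rhbdf2 rose from 22.8 ± 1.53 to 38.0 ± 1.94 TPM (0.72, adjusted p = 7.66e-05), and Rhbdf1 fell from 99.2 ± 2.84 to 54.8 ± 6.39 TPM (-0.85, adjusted p = 7.38e-05). Adam9, another membrane protease, rose with a log2 fold change of 0.38.

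Of 20 tested receptor inhibitors and turnover genes, none rose, 16 fell and 4 did not pass, where 8.66% of all tested genes were called higher and 58.5% lower. The median log2 fold change of the list was -0.29, beside -0.33 for all tested genes. With median-ratio scaling 4 rose and 5 fell, near the 26.0% and 25.2% of all tested genes. Errfi1, an inhibitor that binds the EGFR and ErbB2 kinase domains, went from 227.2 ± 9.21 to 34.7 ± 0.891 TPM. The log2 fold change was -2.68 (SE 0.0458, limma adjusted p = 7.14e-08), and -2.33 once the libraries were scaled. Cblb, a ubiquitin ligase of receptor turnover, fell with a log2 fold change of -1.38, and Socs3 and Socs5, which encode suppressors of signaling, with -0.82 and -0.67.

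Of 23 tested adaptors and kinases, 1 rose, 15 fell and 7 did not pass, and 7 rose and 5 fell with median-ratio scaling. These counts were near the shares of all tested genes, 8.66% higher and 58.5% lower as deposited and 26.0% higher and 25.2% lower after scaling. Pik3r1, a regulatory subunit of PI3-kinase, fell with a log2 fold change of -1.33, and the docking protein gene Gab1 with -1.28. Araf, a RAF kinase, fell by 0.99 on the log2 scale.

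Of 18 tested genes induced by EGF receptor and ERK signaling, 8 rose, 7 fell and 3 did not pass, with a median log2 fold change of 0.15, where 8.66% of all tested genes were called higher and 58.5% lower. With median-ratio scaling 12 rose and 2 fell, beside 26.0% and 25.2%. Fos rose from 4.72 ± 1.0 to 16.1 ± 1.12 TPM (log2 fold change 1.60, limma adjusted p = 4.06e-05), and Ier3, Etv5 and Fosl1 rose with log2 fold changes of 0.94, 0.82 and 0.71. Members of the list did not move one way. Ccnd1, which encodes cyclin D1, went from 60.1 ± 5.57 to 22.7 ± 0.650 TPM (-1.36, adjusted p = 6.11e-06), and Egr1 had a log2 fold change of -0.92; both were named after their values were seen.

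**Figure D5:**
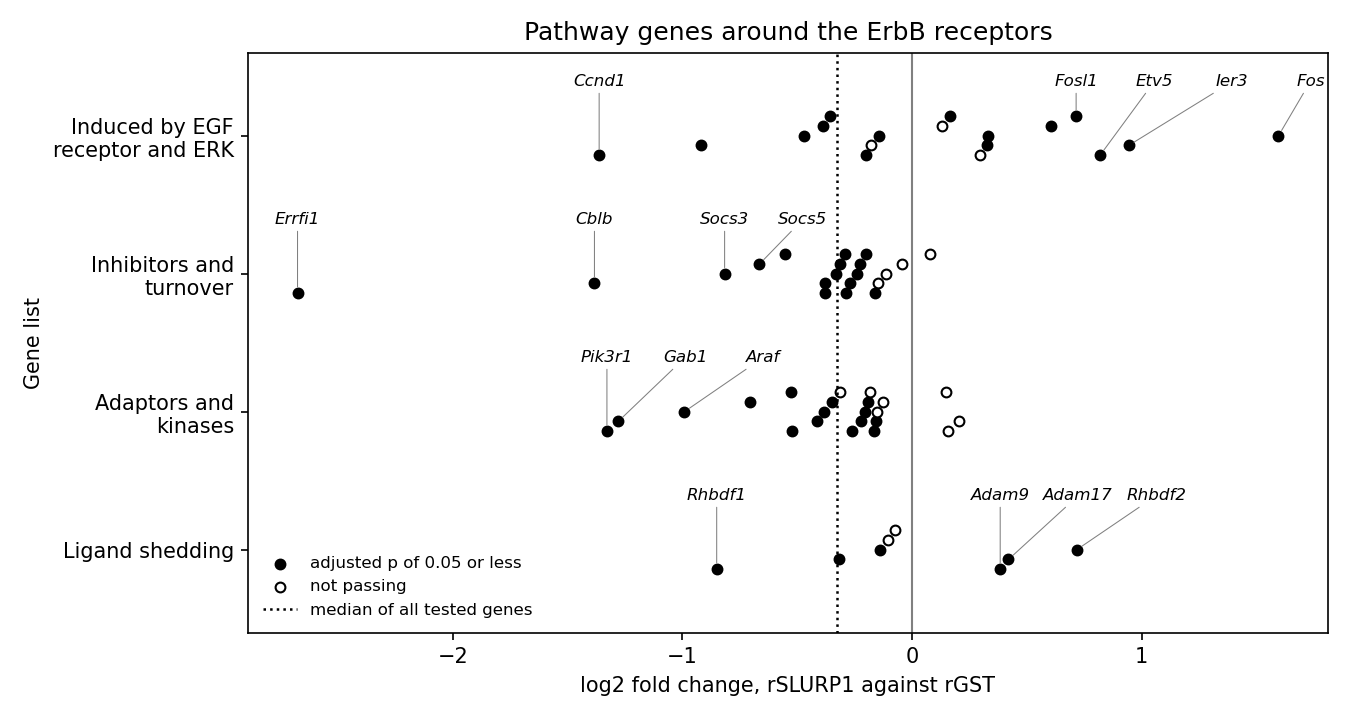
Log2 fold change of the tested genes in 4 pathway lists, leaving out 1 that is not reported here, with filled points for an adjusted p of 0.05 or less and a dotted line at the median of all tested genes. Errfi1 lies lowest at -2.68 and Fos highest at 1.60.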

How the data were processed

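Polyadenylated RNA from 6 spheroid libraries was sequenced, and the authors deposited a gene table of TPM values estimated with RSEM after STAR alignment to mm10 with GENCODE M12 annotation. The submitters' processing notes name Cutadapt 1.18, STAR 2.5.2b and RSEM 1.3.3. The labels and the study's methods name different library kits. TPM keeps no depth, so the depth per library is unknown and no counting interval is given. Groups came from the sample labels.

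Values were tested with limma 3.58.1 (R 4.3.3; lmFit and eBayes with trend) on log2(TPM + 1). Exact permutation tests used scipy 1.17.1. Gene positions came from GENCODE M21, which matched 54079 of 54146 identifiers. The script was tested on simulated data. Members and lists were chosen with earlier results of these data known. Named genes were all members, the remaining family, and up to 4 called, non-overlapping genes per other list with the largest change relative to the median. Hgs, which had 2 identifiers, was left out, and 1 gene of the adaptor list is not reported here. The ratios to Erbb2 and of Areg to Hbegf were added after the values were seen. The promoter window was first searched with 50 further bases after the start, and was shortened after those matches were seen, to leave out bases after the RefSeq start. Alternatives were median-ratio and quantile scaling, a pseudocount of 0.1, other filters, no trend, a length and GC correction, a replicate block and each library left out.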

Additional observations from a re-analysis of the deposited data

How the results depend on the processing

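Counts moved mainly with scaling. Members called higher numbered 2 as deposited and 4 after scaling by median ratios or quantiles and after correction for length and GC content, whether or not the replicate block was added. Members called lower numbered 3 as deposited and 1 after quantile scaling and after the length and GC correction, the replicate block making no difference. Members changed at least 2-fold numbered 4 with a pseudocount of 0.1. Pathway genes called higher numbered 12 as deposited, 28 with median-ratio scaling, 29 by quantiles and 33 after correction for length and GC, again the same under the replicate block. Those called lower numbered 41, 13, 14 and 11 in the same order. Leaving out each library gave 2 to 2 members higher, 2 to 3 lower and 1 to 2 changed at least 2-fold, 11 to 14 pathway genes higher and 31 to 39 lower. Of the members' fold changes under the alternatives, 83 kept their side of the threshold, 12 lost it, 9 gained it and 0 turned direction.

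Same-numbered libraries did not deviate together (correlations of -0.056, -0.034 and -0.061), so the numbers were not taken as pairs. With the replicate block alone, 2 members were called higher and 3 lower, 11 pathway genes higher and 35 lower.

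With a pseudocount of 1, the log2 ratios to Egfr turned to -0.17 for Erbb2, -0.57 for Hbegf and -0.18 for Nrg1, and that of Epgn to Erbb2, which was -0.94, turned to 0.41. The last was -1.46 to 0.016 when each library was left out, and it turned without rSLURP1 replicate 3. These ratios rest on genes under a TPM of 1, and the cause was not tested further.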
